A study of Mus musculus with 16 samples.

Results

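The 46 genes described here encode proteins that carry a cell through mitosis. They were chosen by gene name, as a list of cyclins, mitotic kinases and proteins of the chromosomes, kinetochores, spindle and cleavage furrow, from the 24946 gene names of the deposited tables. All 46 were found, and all 46 reached a level of 1 TPM in at least 4 of the 16 libraries, as 12684 genes did. TPM are reads divided by gene length and scaled to the same total in every library. The libraries hold RNA of lymphatic endothelial cells (LECs), sorted as CD45- CD31+ Podoplanin+ cells from mouse popliteal and brachial lymph nodes (LNs). Wild type (WT) mice and mice lacking Clever-1, the scavenger receptor encoded by *Stab1* (Clever-1 KO), were compared at steady state and 1 day after ovalbumin (OVA) in Freund's adjuvant was injected into the footpad. These inflamed groups are called WT inflamed and KO inflamed, and each of the 4 groups had 4 libraries. The adjuvant is complete by the sample labels and incomplete by the study's methods. The strain is C57BL/6 by the labels and a mixed C57BL/6N and 129SvJ background by the methods. Mice of both sexes were 6 to 12 weeks old. The KO mice lack the gene in every cell and not in LECs alone, and each library pooled 2 mice. The steady state mice are not stated to have received adjuvant without OVA, so OVA and adjuvant cannot be told apart.

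In a dividing cell, cyclin A and cyclin B switch on the kinase Cdk1, and Polo-like and Aurora kinases then help to build the spindle. Condensins and topoisomerase II fold and untangle the chromosomes, kinetochores tie them to microtubules, and the spindle checkpoint holds back the anaphase-promoting complex until every chromosome is attached. Most genes of this program are silent in resting cells and are transcribed together in G2 and M phase, and LN LECs are known to expand when a node swells during an immune response.

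The promoters of such genes often carry a cell cycle genes homology region (CHR, searched as TTTGAA and also as TTCGAA) near the start site, with CCAAT boxes upstream of it. RefSeq promoter sequence on GRCm38.p6, from 250 bases before to 50 bases after the start, was given for 37 of the 46 genes. *Aurkb*, *Ccna2*, *Cdc25c*, *Foxm1*, *Incenp*, *Kif20a*, *Smc4*, *Spc24* and *Tpx2* were not matched. Read on both strands, a CHR stood in 31 of the 39 promoters of the matched genes (79.5%), against 19.2% of the 32851 promoters of the table. CCAAT stood in 29 of them (74.4%, against 37.4%), and both motifs stood in 26 (66.7%, against 7.53%). An E2F type motif (the letters TTTGGCG, the letters TTTCCCG, the letters TTTGCCG or the letters TTTCGCG) stood in 7 (17.9%, against 6.70%). Over the 12508 promoters of genes that reached 1 TPM in 4 libraries, as all 46 did, the shares were 13.99% for a CHR, 37.9% for CCAAT, 5.68% for both and 10.8% for the E2F type. A match describes the letters and does not show that a factor binds there.

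The 5 promoters below belong to genes on which the results turn: *Ccnb2*, *Plk1* and *Top2a*, which rose after OVA in both genotypes, *Bub1*, which had the highest fold of mean TPM in both, and *Bub1b*, which departed from the others. Capitals mark every CHR and CCAAT on either strand, so ATTGG is CCAAT, and TTCAAA a CHR, read from the opposite strand, and no marked motifs overlap. Each runs 5′ to 3′ on the strand of its gene, for *Ccnb2* at chr9:70421505-70421804 (minus strand), *Plk1* at chr7:122159185-122159484 (plus), *Top2a* at chr11:99024140-99024439 (minus), *Bub1* at chr2:127831810-127832109 (minus) and *Bub1b* at chr2:118597961-118598260 (plus).
Ccnb2: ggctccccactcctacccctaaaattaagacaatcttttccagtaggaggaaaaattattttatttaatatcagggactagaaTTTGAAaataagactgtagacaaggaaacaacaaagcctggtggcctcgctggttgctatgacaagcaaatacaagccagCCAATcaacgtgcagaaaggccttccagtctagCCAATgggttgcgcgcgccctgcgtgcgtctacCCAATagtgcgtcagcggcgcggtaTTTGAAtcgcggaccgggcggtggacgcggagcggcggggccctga
Plk1: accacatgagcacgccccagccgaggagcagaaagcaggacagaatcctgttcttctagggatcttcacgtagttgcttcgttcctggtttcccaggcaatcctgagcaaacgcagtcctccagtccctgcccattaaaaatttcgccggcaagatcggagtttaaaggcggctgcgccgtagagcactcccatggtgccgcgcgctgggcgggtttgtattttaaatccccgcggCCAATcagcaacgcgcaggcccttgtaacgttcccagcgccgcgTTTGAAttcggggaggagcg
Top2a: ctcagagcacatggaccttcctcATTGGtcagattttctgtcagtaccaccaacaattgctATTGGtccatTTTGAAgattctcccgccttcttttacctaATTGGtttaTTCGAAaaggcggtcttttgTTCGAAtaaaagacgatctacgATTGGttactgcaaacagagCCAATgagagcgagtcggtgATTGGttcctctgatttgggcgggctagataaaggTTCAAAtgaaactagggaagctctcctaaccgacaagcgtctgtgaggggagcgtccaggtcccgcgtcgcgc
Bub1: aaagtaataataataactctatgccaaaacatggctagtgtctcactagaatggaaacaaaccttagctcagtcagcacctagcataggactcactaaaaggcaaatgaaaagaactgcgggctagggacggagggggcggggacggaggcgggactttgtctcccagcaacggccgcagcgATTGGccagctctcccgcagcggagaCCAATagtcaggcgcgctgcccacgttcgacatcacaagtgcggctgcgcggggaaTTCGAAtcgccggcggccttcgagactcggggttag
Bub1b: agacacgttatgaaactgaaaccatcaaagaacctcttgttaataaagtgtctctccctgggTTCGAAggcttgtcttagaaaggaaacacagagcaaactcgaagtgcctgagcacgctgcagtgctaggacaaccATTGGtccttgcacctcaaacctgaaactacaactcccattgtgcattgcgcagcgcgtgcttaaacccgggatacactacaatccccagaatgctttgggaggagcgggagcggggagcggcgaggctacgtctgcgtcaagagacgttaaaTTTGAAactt
The 3 CCAAT boxes of *Ccnb2* began 33 bases apart, and a CHR began at base 5 after the start site. *Top2a* had 6 CCAAT boxes and 4 CHRs, the nearest CHR 23 bases before the start site. *Plk1* and *Bub1* had a single CHR, which began at bases 31 and 15 after the start. *Bub1b* had a CHR at base 41 after the start as well as another 188 bases before it, and 1 CCAAT box, 113 bases before the start. The other 4 had a CCAAT box nearer to the start, at 14 bases before it for *Plk1*, 21 for *Ccnb2*, 42 for *Bub1* and 58 for *Top2a*.

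The label of the libraries was checked first. *Pecam1* (308 to 1202 TPM), *Lyve1* (1131 to 4651 TPM) and *Prox1* (16.8 to 104 TPM), which encode CD31, a lymphatic hyaluronan receptor and the lymphatic master regulator, were present in all 16 libraries. *Ptprc*, which encodes the leukocyte marker CD45, lay between 0.0225 and 2.84 TPM. *Stab1* measured 235 to 248 TPM in WT, 193 to 640 TPM in WT inflamed, 5.09 to 6.66 TPM in KO and 5.85 to 8.90 TPM in KO inflamed libraries. The TPM scale discards sequencing depth, which is unknown here. WT inflamed replicate 2 stood apart. It had 10903 genes at 1 TPM, against 11898 to 12133 in the others, and its correlation with another library of its group went down to 0.906, against at least 0.965 within WT. *Pecam1* and *Prox1* were lowest in this library, and the WT results that it decides are given with and without it.

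The mitosis genes were low at steady state in both genotypes and were several times higher after OVA. Their summed level was 239, 322, 273 and 245 TPM in the 4 WT libraries and 229, 278, 322 and 255 TPM in the 4 KO libraries. It was 1032, 580, 844 and 955 TPM in WT inflamed libraries and 951, 739, 716 and 866 TPM in KO inflamed libraries. Every inflamed library lay above every steady state library, the lowest being WT inflamed replicate 2. For all 46 genes the highest of the 16 libraries was an inflamed one, namely WT inflamed replicate 1 for 21 genes, replicate 2 for 4 and replicate 4 for 7, and KO inflamed replicate 1 for 9 and replicate 4 for 5. The same count was not made over all genes. Of all genes tested, 39.6% had every KO inflamed library above every KO library. For WT the share was 5.24%, or 31.3% without WT inflamed replicate 2. In bulk RNA a larger share of dividing cells and more RNA per cell cannot be told apart.

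At steady state 32 to 37 of the 46 genes reached 1 TPM in a library. After OVA all 46 did in every library except WT inflamed replicate 2, in which 35 did. Over all libraries *Cks2* had the highest mean (49.7 TPM), followed by *Birc5* (39.1 TPM), *Ube2c* (35.8 TPM), *Ccnb2* (30.1 TPM) and *Racgap1* (27.9 TPM), and *Cenpf* had the lowest (0.945 TPM). Within groups the order differed, since *Bub1b* (24.3 TPM) came second in WT and *Birc5* (72.8 TPM) stood above *Cks2* (68.6 TPM) in WT inflamed LECs. TPM are per length, so these levels may be set side by side only roughly. In some libraries the deviations from the group still followed transcript length, as given below for WT inflamed replicate 2.

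**Figure D1:**
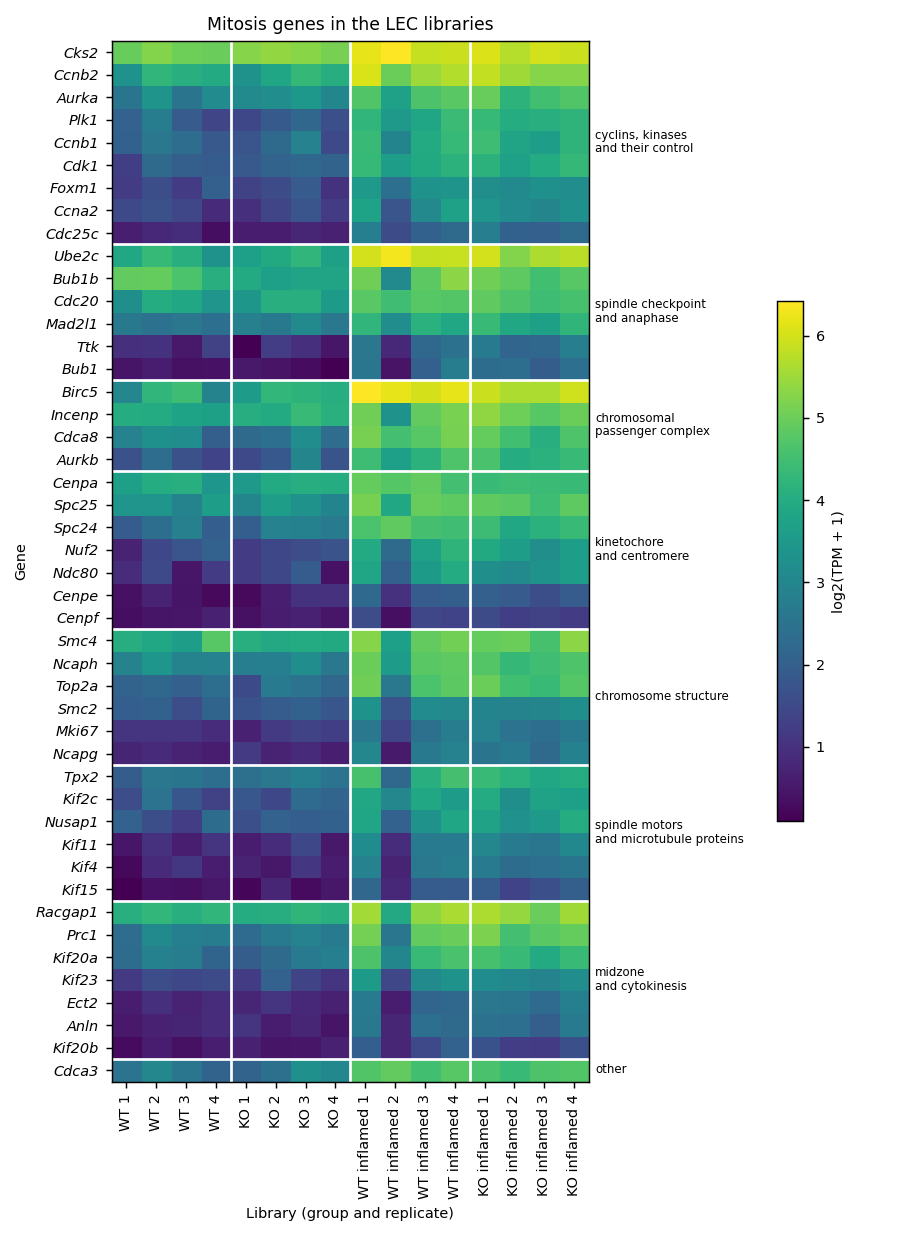
Level of each of the 46 mitosis genes (rows, grouped by role and ordered by mean) in each of the 16 libraries (columns), as log2(TPM + 1) by colour. The inflamed libraries are brighter than the steady state libraries, and WT inflamed replicate 2 is darker than the rest of its group for 40 of the 46 genes. Genes in general were low in that library, with a median deviation of -0.77 over 11852 genes.

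The first comparison asked whether resting LECs without Clever-1 differ from WT LECs in these genes. Levels were tested with limma as log2(TPM + 1), for genes that reached 1 TPM in 4 or more of the libraries compared. Called genes are those whose adjusted p (Benjamini and Hochberg, over all genes tested) did not exceed 0.05 and whose level differed by 1 log2 unit or more. This scale makes the changes of low genes look smaller than they are. SE is the standard error. Nothing in the labels says that libraries came from separate experiments, so p-values measure the spread between these libraries. Of 34 genes tested, limma called 0 higher and 0 lower in KO LECs, where 0.431% and 0.39% of all 12058 genes were. Without adjustment 2 had p under 0.05. The median log2 fold change was 0.02 (all genes -0.04). The other 12 were too low to test, namely *Bub1*, *Kif11*, *Kif20b*, *Kif4*, *Kif15*, *Cenpe*, *Cenpf*, *Ttk*, *Ncapg*, *Cdc25c*, *Anln* and *Ect2*.

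*Bub1b* had the largest difference of the 34 genes at steady state. It encodes BubR1, a kinase-like subunit of the mitotic checkpoint complex, and its gene spans 118598202 to 118641592 of chromosome 2. Levels were 28.8, 29.2, 23.7 and 15.5 TPM in WT and 14.7, 11.6, 12.8 and 12.8 TPM in KO libraries. Every KO library lay below every WT library, although WT replicate 4 was close to KO replicate 1. Among all genes tested 3.81% did not overlap in this direction, as 1 of the 34 did, and 2.73% did not overlap in the other, as 0 of the 34 did, so 1 gene of 34 is near the share of all genes. The means were 24.3 ± 6.36 TPM in WT and 12.99 ± 1.25 TPM in KO LECs (SD, n = 4). This difference of -0.82 log2 units (SE 0.18, limma adjusted p = 0.0468) did not reach the fold threshold. Without WT replicate 4 it was -1.01 (limma adjusted p = 0.00159) and passed, whereas leaving out any one of the other 7 libraries raised the limma adjusted p to 0.0756 to 0.145. It was 0.067 with a replicate block and 0.0889 after rescaling by the median ratio. Over the alternatives its limma adjusted p ranged from 0.00159 to 0.867, the highest in a fit over all 16 libraries.

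*Cks2*, which encodes a small subunit bound to Cdk1, was the other gene with an unadjusted p under 0.05. It measured 29.8, 37.1, 31.5 and 30.5 TPM in WT and 37.8, 41.1, 38.4 and 34.1 TPM in KO libraries. The KO values were mostly the higher ones, but the groups overlapped, and the difference was 0.23 log2 units (SE 0.10, limma adjusted p = 0.417). *Birc5* (0.35) and *Spc24* (0.32) had the highest log2 fold changes of the 34 genes, and *Bub1b* (-0.82) and *Cdca8* (-0.29) the lowest. An adjusted p of at most 0.05 was found for *Bub1b* alone of the 34 genes, and for 1.81% of all genes.

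Next, WT LECs 1 day after OVA were compared with WT LECs at steady state. Of 38 genes tested, 24 were higher, 0 were lower and 14 did not pass, where 1.99% of all 12031 genes were called higher and 1.97% lower. Their median log2 fold change was 1.58 (all genes -0.03), and the inflamed libraries lay wholly above the steady state libraries for 26 of them, against 5.24% of all genes, and wholly below for none (8.81% of all genes). Of the 30 genes already at 1 TPM in all 4 WT libraries, 20 were higher, as were 4 of the 8 below it in some WT library. Without WT inflamed replicate 2, 34 of 37 tested genes were higher (5.84% of all genes) and 0 lower (2.97%), with a median of 1.97 (all genes 0.17), and 36 lay wholly above (31.3% of all genes) and none wholly below (15.4%). This added 12 genes (*Ccna2*, *Incenp*, *Kif11*, *Kif23*, *Kif4*, *Nusap1*, *Prc1*, *Racgap1*, *Smc2*, *Smc4*, *Tpx2* and *Ttk*) and removed 2, *Cks2* and *Cdc25c*, the last because it was then too low to test. When any one of the other 7 libraries was left out instead, 9 to 13 genes passed. With the replicate number as a block 11 passed. The median stayed between 1.45 and 1.97 when 1 library was left out, whereas the number of genes past the threshold rested on single libraries.

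KO LECs were compared in the same way. All 46 genes were tested, and 38 were higher, 0 were lower and 8 stayed under the fold threshold, where 6.41% of all 12161 genes were called higher and 3.06% lower. The median log2 fold change was 1.69. The median of all genes was 0.24, and rescaling each library by its median ratio moved that median by -0.23, so the genes rose by about this much less relative to the rest. All 46 genes had an adjusted p of at most 0.05, as 7330 of the 12161 genes did (60.3%), and KO inflamed lay wholly above KO for all 46, against 39.6% of all genes (14.4% lay wholly below). Of the 31 genes at 1 TPM in all 4 KO libraries 25 were higher, as were 13 of the 15 below it in some KO library. When any one library was left out 35 to 39 were higher.

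**Figure D2:**
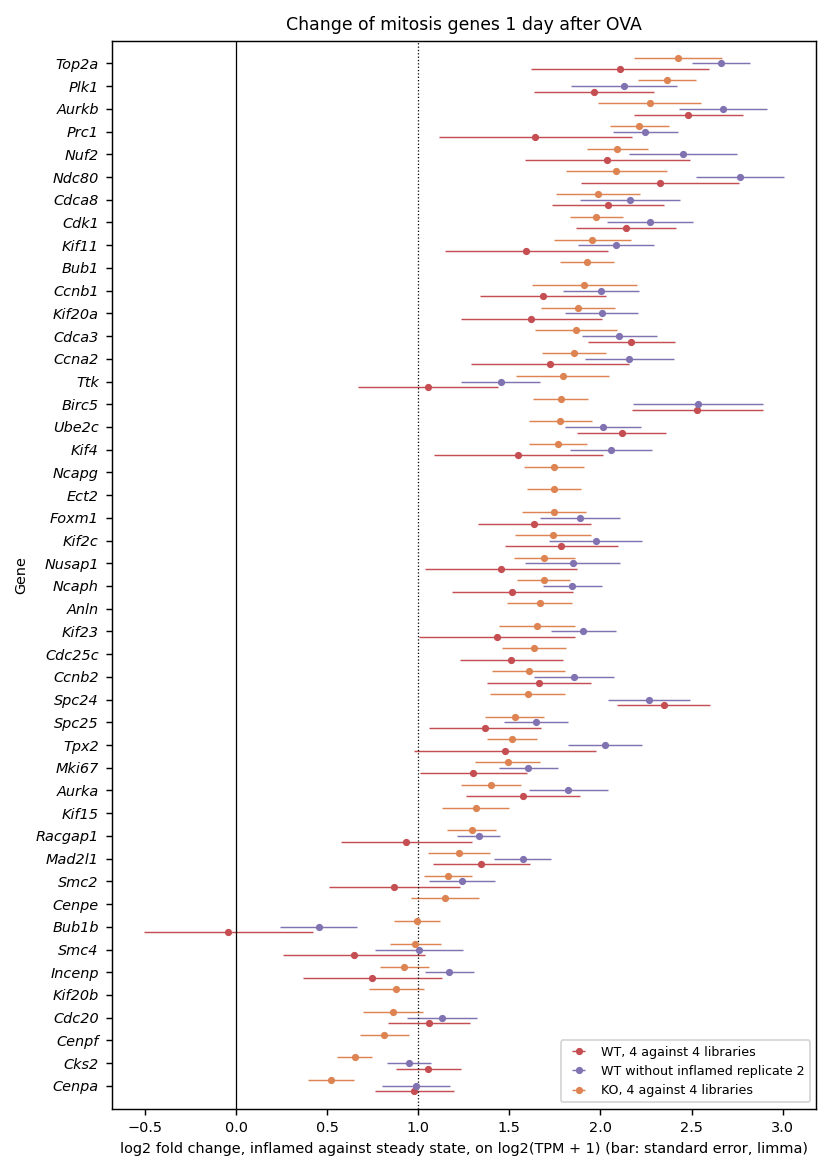
Log2 fold change of each mitosis gene on log2(TPM + 1), inflamed against steady state, in WT LECs with all 8 libraries, in WT LECs without WT inflamed replicate 2 and in KO LECs. Points are limma estimates, bars are standard errors, and the dotted line marks the threshold of 1; genes without a WT point were not tested there, *Bub1b* lies near 0 in WT at -0.04, and the other points lie above 0.

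The cyclins, kinases and their controls came first in the order of events. Of 9 such genes 8 were higher in WT inflamed LECs and 8 in KO inflamed LECs. *Cdk1*, the kinase that drives entry into mitosis, lies on chromosome 10 from 69335146 to 69352912. It measured 1.40, 3.84, 3.03 and 2.84 TPM in WT and 19.2, 11.3, 14.3 and 16.9 TPM in WT inflamed libraries. In KO libraries it measured 2.62, 3.27, 3.60 and 3.33 TPM, and in KO inflamed libraries 16.9, 12.2, 14.9 and 18.7 TPM. All 8 inflamed libraries lay well above all 8 others, and the genotypes lay side by side. *Cdk1* rose by 2.14 log2 units in WT (SE 0.28, limma adjusted p = 0.00305) and by 1.98 in KO LECs (SE 0.15, limma adjusted p = 3.31e-06).

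*Ccnb1* encodes cyclin B1, the partner of Cdk1, and is found on chromosome 13 from 100778739 to 100786486. WT libraries had 3.15, 5.11, 4.07 and 2.63 TPM and WT inflamed libraries 19.8, 6.67, 14.5 and 19.1 TPM, with replicate 2 the lowest of the inflamed values but above WT. It was 2.40, 3.83, 6.46 and 1.83 TPM in KO and 20.8, 12.9, 11.4 and 17.5 TPM in KO inflamed libraries. The groups did not overlap in either genotype. The log2 fold changes were 1.68 in WT (SE 0.35, limma adjusted p = 0.024) and 1.91 in KO LECs (SE 0.29, limma adjusted p = 0.000258). *Ccnb2*, which encodes the related cyclin B2, rose by 1.66 and 1.61 on the log2 scale (limma adjusted p = 0.0114 and 7.6e-05), from means of 14.3 ± 3.88 and 14.1 ± 4.11 TPM to 47.9 ± 14.4 and 44.1 ± 8.72 TPM (SD, n = 4).

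*Plk1*, the Polo-like kinase that acts at centrosomes, kinetochores and the midzone, lies on chromosome 7 from 122159435 to 122169884. It had 3.22, 5.85, 2.73 and 1.66 TPM in WT and 18.2, 10.5, 13.3 and 20.2 TPM in WT inflamed libraries. In KO libraries it had 1.77, 2.66, 3.51 and 2.12 TPM, and in KO inflamed libraries 19.2, 15.2, 15.6 and 17.6 TPM. Inflamed and steady state values were far apart in both genotypes. The rise was 1.97 log2 units in WT (SE 0.33, limma adjusted p = 0.01) and 2.37 in KO LECs (SE 0.16, limma adjusted p = 2.39e-06). *Foxm1*, the transcription factor that drives genes of G2 and M phase, lies on chromosome 6 from 128362994 to 128375886 and rose by 1.64 and 1.74 (limma adjusted p = 0.0168 and 2.12e-05). Its 4 KO inflamed values lay within 7.51 to 8.60 TPM, and its KO values within 1.03 to 2.74 TPM. *Cks2* was 1.05 in WT (limma adjusted p = 0.0108), 0.95 without WT inflamed replicate 2, its highest library, and 0.65 in KO LECs, so it passed the fold threshold with all WT libraries and in neither of the others.

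**Figure D3:**
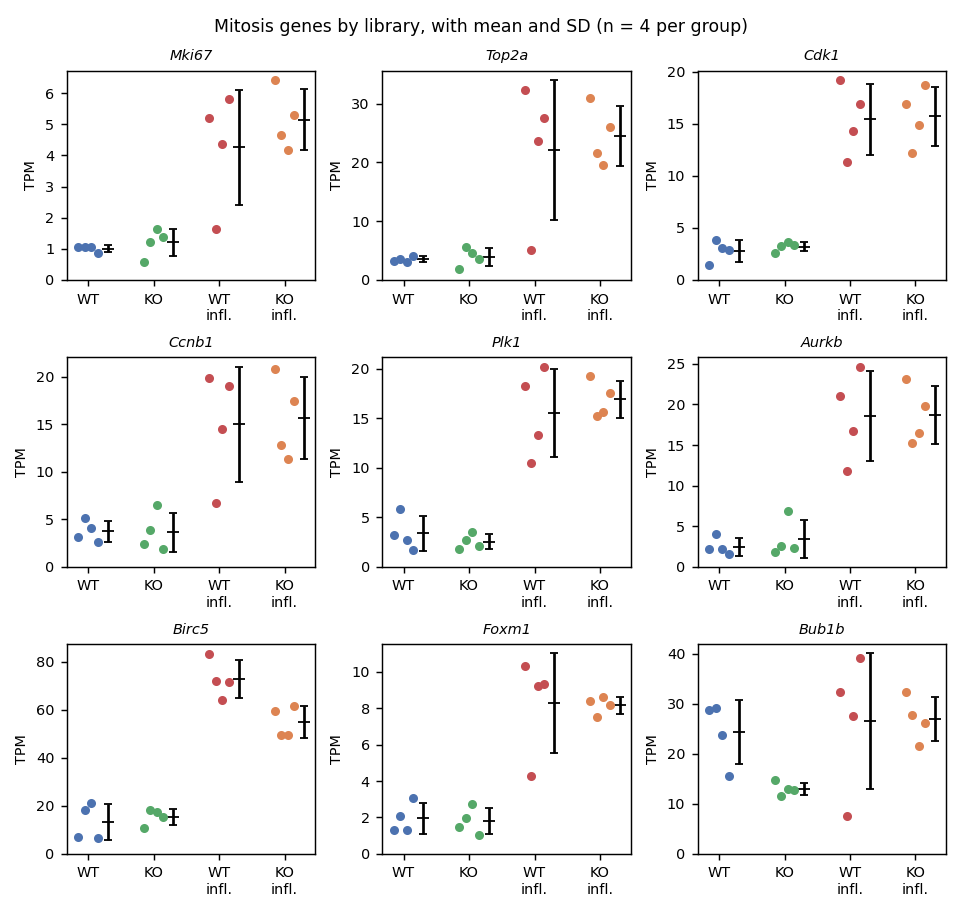
TPM of *Mki67*, *Top2a*, *Cdk1*, *Ccnb1*, *Plk1*, *Aurkb*, *Birc5*, *Foxm1* and *Bub1b* in each library (points) with the mean and SD of each group of 4 libraries (bars). The inflamed libraries lie above the steady state libraries of the same genotype in every panel except WT *Bub1b*; WT inflamed replicate 2 is the lowest of its group in all panels except *Birc5*, and the 4 KO values of *Bub1b* lie below all 4 WT values.

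Chromosome structure came next, and 3 of 5 tested genes of this role were higher in WT inflamed LECs, 5 of 5 without WT inflamed replicate 2, and 5 of 6 in KO inflamed LECs. *Top2a*, which encodes topoisomerase II alpha, lies on chromosome 11 from 98992947 to 99024199. It measured 3.30, 3.62, 3.06 and 4.16 TPM in WT and 32.3, 5.13, 23.6 and 27.5 TPM in WT inflamed libraries. In KO libraries it was 1.83, 5.54, 4.67 and 3.55 TPM, and in KO inflamed libraries 30.9, 21.6, 19.5 and 26.0 TPM. The WT inflamed group held 3 high libraries and replicate 2, which lay just above WT. *Top2a* rose by 2.11 log2 units in WT LECs (SE 0.49, limma adjusted p = 0.0388), 2.66 without that library (limma adjusted p = 3.07e-06) and 2.43 in KO LECs (SE 0.24, limma adjusted p = 2.01e-05), the largest of the 46 genes in KO.

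*Mki67* encodes Ki-67, the surface layer protein of mitotic chromosomes and a common marker of dividing cells, on chromosome 7 from 135689784 to 135716450. Its level was 1.07, 1.06, 1.06 and 0.854 TPM in WT and 5.19, 1.64, 4.38 and 5.81 TPM in WT inflamed libraries. KO libraries had 0.583, 1.23, 1.63 and 1.38 TPM and KO inflamed libraries 6.43, 4.66, 4.18 and 5.31 TPM. Neither pair of groups overlapped. The rise was 1.30 log2 units in WT (limma adjusted p = 0.0346) and 1.49 in KO LECs (limma adjusted p = 6.36e-05), the low levels holding it down on this scale. The mean rose 4.22-fold in WT and 4.27-fold in KO. *Smc2*, *Smc4*, *Ncaph* and *Ncapg* encode condensin subunits. *Ncaph* was higher in both genotypes (1.52 and 1.69), and *Smc2* and *Ncapg* in KO LECs (1.16 and 1.75). In WT LECs *Ncapg* was too low to test, and *Smc2* measured 0.87 and was called at 1.24 without WT inflamed replicate 2 (limma adjusted p = 0.000521). *Smc4* measured 0.65 in WT, 1.00 without that library (limma adjusted p = 0.00818, called) and 0.98 in KO.

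The chromosomal passenger complex of *Aurkb*, *Birc5*, *Cdca8* and *Incenp* corrects faulty attachments and later guides the cleavage furrow. *Aurkb* (chromosome 11, 69045624 to 69051664) encodes its kinase. It had 2.15, 4.10, 2.18 and 1.56 TPM in WT and 21.0, 11.7, 16.8 and 24.6 TPM in WT inflamed libraries. In KO libraries it had 1.80, 2.56, 6.89 and 2.36 TPM, and in KO inflamed libraries 23.2, 15.2, 16.5 and 19.8 TPM. KO replicate 3 was the highest steady state library and still lay below all inflamed ones. *Aurkb* rose by 2.48 log2 units in WT (SE 0.30, limma adjusted p = 0.00231) and 2.27 in KO LECs (SE 0.28, limma adjusted p = 7.79e-05).

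*Birc5* encodes survivin, the subunit that docks the complex on the inner centromere, on chromosome 11 from 117849237 to 117855743. Its level was 7.15, 18.1, 21.1 and 6.58 TPM in WT and 83.4, 72.1, 64.0 and 71.7 TPM in WT inflamed libraries. It was 10.8, 18.4, 17.2 and 15.4 TPM in KO and 59.4, 49.3, 49.3 and 61.7 TPM in KO inflamed libraries. WT inflamed replicate 2 lay within its group here, and every KO inflamed library lay below every WT inflamed library. With 2.53 (SE 0.36, limma adjusted p = 0.0047) it had the largest log2 fold change of the 38 genes in WT, and it rose by 1.78 in KO LECs (SE 0.15, limma adjusted p = 7.83e-06). *Cdca8*, which encodes borealin, rose by 2.04 and 1.99 (limma adjusted p = 0.00598 and 4.73e-05). *Incenp*, the scaffold of the complex, measured 0.75 in WT LECs and 0.92 in KO LECs and was not called in either, but it was called at 1.17 in WT without WT inflamed replicate 2 (limma adjusted p = 0.000115).

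Of the kinetochore and centromere genes, 4 of 5 tested were higher in WT inflamed and 5 of 7 in KO inflamed LECs. *Ndc80*, *Nuf2*, *Spc24* and *Spc25* encode the 4 subunits of the Ndc80 complex, the main microtubule coupler, and all 4 were higher in both genotypes. *Ndc80* was 0.849, 1.81, 0.399 and 1.28 TPM in WT, 13.1, 3.06, 10.6 and 14.8 TPM in WT inflamed, 1.31, 1.76, 2.82 and 0.321 TPM in KO and 8.47, 7.65, 9.15 and 11.6 TPM in KO inflamed libraries. The inflamed libraries stood above the others without overlap. Its log2 fold changes were 2.33 and 2.09 (limma adjusted p = 0.0157 and 0.000114), those of *Nuf2* 2.04 and 2.09, those of *Spc24* 2.35 and 1.60, and those of *Spc25* 1.37 and 1.53. *Cenpa*, the centromeric histone H3 variant, had an adjusted p of at most 0.05 in both fits but measured 0.98 and 0.52, and *Cenpf*, a protein of the outer kinetochore, measured 0.81 in KO. *Cenpe*, a kinetochore motor, rose by 1.15 in KO and was too low to test in WT.

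Among genes of the spindle checkpoint and anaphase, 3 of 5 tested were higher in WT inflamed and 4 of 6 in KO inflamed LECs. *Ube2c*, the ubiquitin-conjugating enzyme of the anaphase-promoting complex, rose by 2.12 in WT and 1.78 in KO LECs (limma adjusted p = 0.00211 and 1.64e-05), from means of 14.4 ± 4.31 and 13.9 ± 2.96 TPM to 64.2 ± 10.1 and 50.5 ± 10.8 TPM (SD, n = 4). *Bub1*, a checkpoint kinase of kinetochores, was 0.355, 0.491, 0.298 and 0.318 TPM in WT and 4.97, 0.340, 3.07 and 5.68 TPM in WT inflamed libraries. It was 0.448, 0.334, 0.238 and 0.0758 TPM in KO and 4.03, 4.24, 2.88 and 4.26 TPM in KO inflamed libraries. WT inflamed replicate 2 lay among the steady state values and the other inflamed libraries far above them. *Bub1* was too low to test in WT and rose by 1.93 in KO LECs (SE 0.15, limma adjusted p = 4.49e-06). Its mean was 9.62-fold higher after OVA in WT and 14.1-fold higher in KO, the highest ratios of the 46 genes. These ratios divide by low means of 0.366 TPM in WT and 0.274 TPM in KO, and *Ndc80* was nearly level in WT at 9.59-fold. The median ratio of the 46 genes was 4.27 in WT and 4.12 in KO.

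*Bub1b* behaved differently from *Bub1*. In inflamed libraries it measured 32.3, 7.49, 27.6 and 39.1 TPM in WT and 32.4, 27.7, 21.6 and 26.2 TPM in KO. The WT inflamed values straddled those of WT at steady state, whereas all KO inflamed values lay above the KO values given above. After OVA *Bub1b* changed by -0.04 log2 units in WT LECs (SE 0.46, limma adjusted p = 0.991), 0.45 without WT inflamed replicate 2 (SE 0.21, limma adjusted p = 0.112) and 0.99 in KO LECs (SE 0.13, limma adjusted p = 8.49e-05). The KO fold change rests on the same 4 low KO libraries as the steady state difference. The difference between the genotypes' responses was 1.04 (SE 0.51, limma adjusted p = 0.668), or 0.54 without WT inflamed replicate 2 (SE 0.26, limma adjusted p = 0.707), and was not called. The other checkpoint genes were *Mad2l1*, which rose by 1.35 and 1.23, *Cdc20*, with 1.06 in WT and 0.86 in KO, and *Ttk*, with 1.05 in WT (limma adjusted p = 0.181), 1.45 without WT inflamed replicate 2 (limma adjusted p = 0.000582, called) and 1.79 in KO (limma adjusted p = 0.000175).

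Of the spindle motors and microtubule proteins, 1 of 5 tested genes was higher in WT inflamed LECs, 5 of 5 without WT inflamed replicate 2, and 6 of 6 in KO inflamed LECs. The one was *Kif2c*, a kinesin that takes microtubules apart, which rose by 1.79 in WT and 1.74 in KO LECs (limma adjusted p = 0.0119 and 5.75e-05). *Kif11*, the kinesin that pushes spindle poles apart, was 0.398, 1.00, 0.534 and 1.06 TPM in WT and 8.03, 0.871, 5.66 and 5.50 TPM in WT inflamed libraries. It was 0.521, 0.855, 1.76 and 0.436 TPM in KO and 7.06, 5.38, 4.96 and 7.27 TPM in KO inflamed libraries. WT inflamed replicate 2 again fell among the steady state values, and the other 7 inflamed libraries lay above all steady state ones. It differed by 1.59 log2 units in WT (SE 0.45, limma adjusted p = 0.0792), 2.08 without that library (limma adjusted p = 5.17e-05) and 1.96 in KO LECs (limma adjusted p = 3.24e-05).

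The midzone and cytokinesis genes followed the same course, with 1 of 4 tested higher in WT inflamed LECs, 4 of 4 without WT inflamed replicate 2, and 6 of 7 in KO inflamed LECs. *Prc1*, which bundles the microtubules of the midzone, was 4.12, 7.49, 6.03 and 5.67 TPM in WT and 33.1, 4.96, 29.1 and 30.5 TPM in WT inflamed libraries. It was 3.92, 5.53, 6.49 and 5.39 TPM in KO and 35.3, 22.2, 26.9 and 29.4 TPM in KO inflamed libraries. Replicate 2 lay within the WT range and the remaining inflamed libraries far above it. It differed by 1.64 log2 units in WT (SE 0.53, limma adjusted p = 0.125), 2.25 without that library (limma adjusted p = 1.25e-05) and 2.21 in KO LECs (limma adjusted p = 3.39e-06). *Kif20a*, a kinesin needed for cytokinesis, rose by 1.62 and 1.87 (limma adjusted p = 0.0433 and 3.22e-05). *Racgap1*, which acts with *Ect2* at the cleavage furrow, measured 0.93 in WT (limma adjusted p = 0.207), was called at 1.33 without WT inflamed replicate 2 (limma adjusted p = 2.57e-05) and rose by 1.29 in KO LECs (limma adjusted p = 2.7e-05). *Cdca3*, which marks the Cdk1 inhibitor Wee1 for destruction, rose by 2.17 and 1.87 (limma adjusted p = 0.00171 and 6.3e-05).

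WT inflamed replicate 2 was examined further because so many values turned on it. Of the 46 genes, 40 lay below the other 3 WT inflamed libraries, 4 above them (*Cks2*, *Spc24*, *Cdca3* and *Ube2c*) and 2 within their range (*Cenpa* and *Birc5*). For 17 genes it was no higher than the highest WT library. The same counts were not made over all genes, but genes in general were low in this library. Its median deviation from the rest of its group, on log2(TPM + 1), was -1.24 over the 46 genes and -0.77 over 11852 genes. The 23 genes with the shorter longest transcript (692 to 3236 bases) had a median of 0.480 times the mean of the other 3 libraries, and the 23 with the longer (3334 to 11130 bases) a median of 0.250 times. Across genes Spearman's rho of transcript length with the deviation of this library was -0.46 over the 46 genes and -0.57 over 11852 genes. In WT replicate 2 the same values were -0.47 and 0.02, so a rho of this size over the 46 genes was not particular to WT inflamed replicate 2. Genes of 1 library are not independent, so no p is given, and the look at length was chosen after the values were seen. The summed LEC markers were also low in it, at 2051 TPM against 4956 to 5708 TPM in the rest of its group. At steady state they summed to 2376 to 3080 TPM in WT libraries. The part of transcript length or of cell makeup in these values was not tested.

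**Figure D4:**
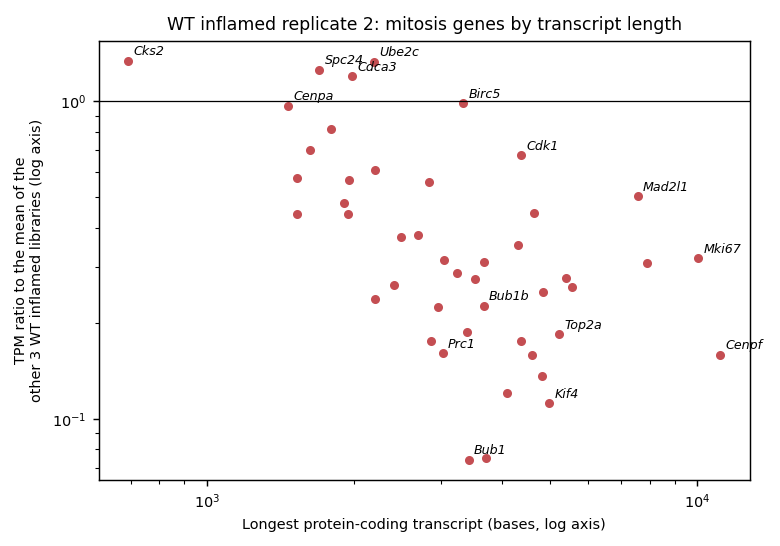
Level of each mitosis gene in WT inflamed replicate 2 as a ratio to the mean TPM of the other 3 WT inflamed libraries (vertical, log axis), against the length of its longest protein-coding transcript in bases (horizontal, log axis). Each point is 1 of the 46 genes; the 4 points above the line at 1 all have transcripts under 3236 bases, and *Bub1* is lowest at 0.0743.

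The next question was whether inflamed LECs differ by genotype. Of 46 genes tested, limma called 0 higher and 0 lower in KO inflamed than in WT inflamed LECs, where 0.191% and 0.125% of 12030 genes were called, and 2 had an unadjusted p under 0.05. The median log2 fold change was 0.12 (all genes 0.20), and -0.18 (all genes 0.02) without WT inflamed replicate 2, so its sign turned on that library. The 2 genes were *Birc5* (-0.40, standard error 0.15) and *Cenpa* (-0.37, standard error 0.16), both with limma adjusted p = 0.717. *Spc24*, *Birc5* and *Cenpa* were lower in KO inflamed than in WT inflamed libraries without overlap, where 1.22% of all genes were, and 0 were higher without overlap, where 3.97% were. *Spc24* measured 23.7, 28.2, 22.5 and 21.3 TPM in WT inflamed and 20.4, 13.9, 16.7 and 19.7 TPM in KO inflamed libraries. The gap between the groups was small beside the spread within them. At the other end, *Ect2* (0.65) and *Prc1* (0.47) had the highest log2 fold changes, and both were lowest in WT inflamed replicate 2. Without that library they were 0.21 and -0.13. Without that library limma called 0 genes (0.335% of all genes higher and 0.318% lower) and 6 had an unadjusted p under 0.05, with a lowest adjusted p of 0.211. Then 5 genes were lower without overlap (4.79% of all genes), namely *Birc5*, *Cenpa*, *Spc24*, *Ncaph* and *Foxm1*, and 0 were higher (5.59%).

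The responses themselves were compared by a genotype by OVA interaction fitted to all 16 libraries. Limma called 0 of 46 genes in either direction, as it did 0% of all 12684 genes, and *Spc24* alone had an unadjusted p under 0.05 (-0.75, standard error 0.34, limma adjusted p = 0.668). *Bub1b* (1.04) and *Ttk* (0.74) had the highest differences, and *Birc5* (-0.75) and *Spc24* the lowest. Without WT inflamed replicate 2 the highest were again *Bub1b* (0.54) and *Ttk* (0.34), and the lowest *Birc5* (-0.75) and *Ndc80* (-0.68, from -0.24 with it). The median was 0.13 (all genes 0.23), and -0.24 (all genes 0.06) without WT inflamed replicate 2, where again 0 genes were called (0.0395% of all genes higher and 0.0079% lower) and 0 had an unadjusted p under 0.05. The 38 calls in KO and 24 in WT therefore do not show a larger response in KO LECs. The standard error of the interaction was 0.19 to 0.59 log2 units over the genes. The difference of *Bub1b* (1.04), with its own standard error as given above, was not called either, so differences of about this size could be missed.

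Other cell cycle genes were counted from 4 further lists that hold none of the 46. Of 65 further mitosis genes, 21 of 54 tested were higher in WT inflamed LECs and 38 of 61 in KO inflamed LECs, with 0 lower in either and medians of 1.21 and 1.18. Without WT inflamed replicate 2, 31 of 49 were higher in WT. Among these *Pbk*, a mitotic kinase, rose by 1.72 and 2.47, and *Cenph*, a centromere protein, by 1.86 and 2.01. Of 40 DNA replication genes, 12 of 39 and 25 of 40 were higher and 0 were lower, with medians of 0.90 and 1.12. In WT it was 24 of 37 without WT inflamed replicate 2, with a median of 1.13. *Rrm2*, the ribonucleotide reductase subunit made in S phase, was 2.58, 4.17, 3.63 and 2.56 TPM in WT and 36.2, 9.06, 29.8 and 34.8 TPM in WT inflamed libraries. The inflamed values were all above the others, with replicate 2 the lowest. It rose by 2.60 in WT (limma adjusted p = 0.00795) and by 2.37 in KO LECs (limma adjusted p = 1.48e-05).

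Of 12 G1 cyclins and kinases *Ccne1*, the S phase cyclin E1, rose by 1.89 and 1.72 and *E2f1*, a transcription factor of S phase entry, by 1.37 and 1.03, among 11 tested. Of 21 cell cycle inhibitors *Pkmyt1*, a kinase that restrains Cdk1, rose by 1.32 and 1.17, and *Gadd45b*, a stress-induced inhibitor, fell by 1.43 in KO LECs. From a list of regulators of mitotic gene transcription *Mybl2*, the B-Myb subunit of the complex that binds CHR promoters, rose by 1.80 in KO LECs (limma adjusted p = 4.69e-06). The median of the inhibitors was -0.08 and 0.08, and that of the G1 list 0.21 and 0.35, where all genes lay at -0.03 and 0.24. In WT without WT inflamed replicate 2 these medians were 0.21 and 0.38 (all genes 0.17), and *Rbl1* (1.20), a pocket protein, and *Cdk2* (1.02) were called higher as well.

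*Pttg1* and *Cdk2*, cell cycle genes of another part of the series, differed by genotype at steady state, where 0 of the 34 tested mitosis genes were called. Of 20 cell cycle inhibitors tested, 1 was also called lower in KO than in WT LECs, and 1 in KO inflamed than in WT inflamed LECs. *Pttg1*, the securin that holds back separase, measured 174, 214, 205 and 184 TPM in WT and 25.1, 28.2, 24.4 and 17.1 TPM in KO libraries, with no overlap (log2 fold change -2.995, limma adjusted p = 3.29e-07). *Cdk2*, a kinase of S phase, measured 5.86, 6.16, 4.68 and 6.44 TPM in WT and 27.8, 24.2, 34.8 and 22.4 TPM in KO libraries, again with no overlap (2.05, limma adjusted p = 1.99e-05). Between the inflamed groups 0 of the 12 G1 cyclins and kinases, *Cdk2* among them, were called with all libraries. The highest log2 fold change of that list was still 2.21. Without WT inflamed replicate 2, 1 of the 12 was called higher in KO inflamed LECs, and the highest was 1.92. Of 64 further mitosis genes tested between the inflamed groups, 1 was called lower in KO, and the lowest log2 fold change was -1.69. A count of 0 with all libraries therefore does not show that these differences were absent after OVA.

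Markers of other cells were followed beside these counts. The 7 B cell markers summed to 72.1 to 95.9 TPM in WT, 116 to 129 TPM in KO, 38.4 to 61.2 TPM in WT inflamed and 54.7 to 72.8 TPM in KO inflamed libraries. The 8 T cell markers summed to 59.1 to 87.8, 62.2 to 85.4, 64.8 to 87.0 and 58.1 to 76.7 TPM in the same order. Within each genotype the B cell sums were lower after OVA, and the T cell sums were level. Of 7 T cell markers tested 1 was called lower in WT inflamed and 5 in KO inflamed LECs, with median log2 fold changes of -0.92 and -1.68 and 1 gene above 0 in each. *Cd3e*, a chain of the T cell receptor complex, lay at 0.429 to 7.79 TPM over the 16 libraries and was not at 0 in any. The 8 markers of blood endothelium and high endothelial venules summed to 2346 to 2898 TPM in WT, 4848 to 6284 TPM in KO, 1498 to 3378 TPM in WT inflamed and 2047 to 3818 TPM in KO inflamed libraries. The 8 LEC markers summed to 2376 to 3080 TPM in WT and 2382 to 2738 TPM in KO libraries. They summed to 2051 to 5708 TPM in WT inflamed and 5606 to 6630 TPM in KO inflamed libraries. Of 7 LEC markers tested 0 were called higher in WT inflamed LECs, 3 without WT inflamed replicate 2 and 4 in KO inflamed LECs. Genes of red cells went the other way, with 205 to 469 TPM at steady state and 1.48 to 74.7 TPM after OVA. The part of cell makeup in the mitosis counts was not tested.

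**Figure D5:**
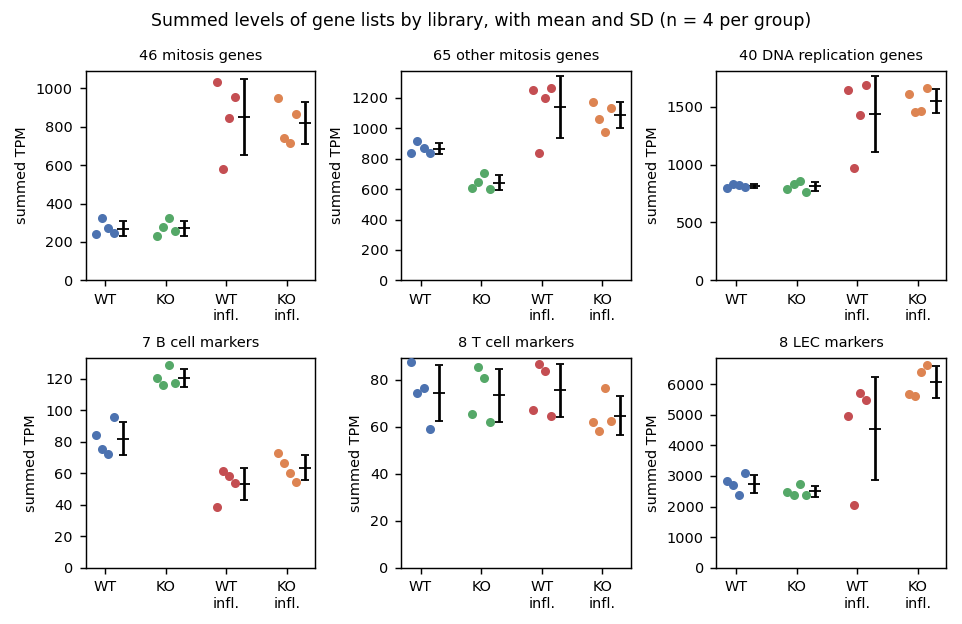
Summed TPM of the mitosis genes, 2 further cell cycle lists and 3 sets of cell type markers in each library (points), with the mean and SD of each group of 4 libraries (bars). The cell cycle lists are higher in inflamed libraries, with WT inflamed replicate 2 lowest among them. In that library the 65 further mitosis genes (834.9 TPM) lie within the WT range of 834.8 to 915.7 TPM. The B cell markers are lower in inflamed libraries, and the sum of the T cell markers is level.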

How the data were processed

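The authors aligned single-end reads to mm10 and deposited TPM per gene and library, with STAR, salmon and DESeq2 by the methods and STAR 2.5.2b, Subread and limma by the labels. They deposited 3 such tables used here, which repeat 8 library columns with 0 differing values, and 26 gene names turned into dates were dropped. The other 7 tables hold the authors' fold changes, errors and q values and were not used. Depth is unknown, and precision is the spread of 4 libraries. Groups came from the labels.

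A comparison took the genes that 4 or more of its libraries held at 1 TPM, tested as log2(TPM + 1) with limma 3.58.1 in R 4.3.3 (lmFit, eBayes with trend), for 5 comparisons, with no replicate term. The test was checked on simulated data. The members and the lists were chosen with earlier results of these data known. Members were named as common markers of division (*Mki67*, *Top2a*, *Cdk1*, *Ccnb1*, *Plk1*, *Aurkb*, *Birc5*, *Foxm1*), for the 5 highest means, as the 12 largest changes of a comparison among those called, or as the 2 highest and 2 lowest where none was, and up to 4 genes per other list by size; the rest were named after their values were seen. Positions and promoters are RefSeq on GRCm38.p6, the assembly of mm10, and lengths are GENCODE. The results were recomputed with a pseudocount of 0.1 or 5 TPM, no filter, a minimum of 5 TPM, median ratio rescaling, array weights, a replicate block, no fold threshold, a fit over 16 libraries and leaving out each library. Dropping WT inflamed replicate 2 along with the filter, or with rescaling, was chosen after seeing the data. Python 3.11.15 and matplotlib 3.10.9 drew the figures.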

Additional observations from a re-analysis of the deposited data

Results flagged for a closer look

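In 6 of 108 groups of 4 values, 1 library lay far from the other 3, with a gap to the nearest that exceeded Dixon's critical value. Chance gives about 1 such group in 20, which is 5% of groups. The median level of the 46 genes was 4.16 TPM in WT replicate 2, above 2.88 to 3.07 TPM in the other WT libraries. KO replicate 3 was high for 2 genes of the chromosomal passenger complex, with *Aurkb* at 6.89 TPM against 1.80 to 2.56 TPM and *Cdca8* at 8.08 TPM against 3.82 to 4.28 TPM. *Bub1* was low in KO inflamed replicate 3, at 2.88 TPM against 4.03 to 4.26 TPM. *Mki67* was 0.854 TPM in WT replicate 4, against 1.06 to 1.07 TPM. *Prc1* was 4.96 TPM in WT inflamed replicate 2, against 29.1 to 33.1 TPM.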

How the results depend on the processing

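No called result changed direction. The count of mitosis genes higher in WT inflamed LECs was 24, and 11 with a replicate block, 9 to 34 when 1 library was left out (9, 13, 12 and 12 without WT replicates 1 to 4, and 11, 34, 11 and 11 without WT inflamed replicates 1 to 4), and 42 without both the filter and WT inflamed replicate 2; the count over fewer libraries also tests fewer genes. The count in KO inflamed LECs was 38, and 23 with a pseudocount of 5 TPM, with medians of 2.05 at a pseudocount of 0.1 TPM and 0.98 at 5 TPM, which follow from the scale. *Bub1b* became 1 lower gene at steady state with no fold threshold or without WT replicate 4, so 0 to 1 over the libraries left out. The replicate block moved no other count of the 46 genes. Libraries of the same number did not deviate together (correlations of -0.13 to 0.10 over genes). These are deviations within groups of 4 libraries, so they cannot exclude handling shared by replicate number. Rescaling by the median ratio moved the median of all genes by -0.23 in KO, by -0.21 between the inflamed groups and by -0.25 in the interaction. TPM hold no depth, so counting error of genes near 1 TPM could not be given.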
